A study of Mus musculus with 2 samples.

Results

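Zfp-named genes are the mouse genes whose symbol is Zfp followed by a number, most of which encode zinc finger proteins. Members were chosen by symbol and by deposited intensity. The ratio between the arrays was not used, although a gene could enter through 1 array alone, which then also set its direction. A gene entered where its brightest probe set by mean, among those annotated to a single symbol, read above 441, the median of all non-control readings, on at least 1 of 2 arrays. This gave 103 genes of 173 Zfp-named genes with such a probe set, out of 12393 genes on the array. The 103 genes are 1.16% of the 8852 genes that passed the same limit.

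The study compared primitive with maturing haematopoietic stem cells (HSC), both taken from mouse bone marrow, kept in culture for a short time, sorted by flow cytometry and not treated. There was 1 array of primitive HSC and 1 of maturing HSC. The sources used here do not give strain, sex, age, sorting markers or any pooling of animals. Messenger RNA of each population was copied into cDNA, amplified by PCR, selected by size and cloned in a phage vector, per the labels' protocols. The inserts of each cDNA library were then transcribed into biotinylated cRNA, so each array reads a cloned library and not RNA taken directly from the cells.

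A classical C2H2 zinc finger is a short fold in which a pair of cysteines and a pair of histidines hold a zinc ion, and a row of such fingers reads a stretch of DNA. Many mouse Zfp genes also encode a KRAB domain, which recruits the co-repressor TRIM28 (KAP1) and through it the histone methyltransferase SETDB1 and heterochromatin proteins. This machinery is known for silencing retroelements and keeping imprints. Other genes with the Zfp symbol belong to different classes, such as the CCCH proteins of the Zfp36 family, which bind AU-rich elements of messenger RNAs and direct their decay.

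Both arrays had about the same 2% trimmed mean (1000.6 primitive, 1000.4 maturing). Stem cell markers were above the floor (441.0) for 11 of 13 genes on each array, and their intensities summed to 30743 in primitive and 26699.5 in maturing HSC. That order rests on Procr (11572 and 1895), without which the sums were 19172 and 24804. Of the 13 genes, 6 had the higher primitive and 7 the higher maturing reading, Cd34 (-0.91), Hlf (-1.25) and Kit (-0.41) among the latter. Neutrophil and monocyte markers summed to 113762 and 61060, with 6 and 8 of 8 above the floor. The sums rest on S100a8, Camp, Lyz2 and S100a9, all higher in primitive HSC, while Mpo and Csf3r (bounds of -2.55 each) and Ltf (-1.63) went the other way. Markers of T and natural killer cells summed to 56532 and 10693, with 5 and 2 of 7 above the floor. Of the CD3 genes of the T cell receptor complex, Cd3d read 8674 in primitive and 44.2 in maturing HSC. Cd3e and Cd3g were at the floor on both. The chemokine gene Ccl5 read 37798 and 1511 (4.64) and made up most of the primitive sum. Most of the maturing sum came from Nkg7, which went the other way (6299 and 7932, -0.33). Of this list, 4 genes had the higher primitive and 1 the higher maturing reading. B cell markers had 2 and 3 of 5 above the floor with Ebf1 and Pax5 at the floor on both, erythroid markers 2 and 2 of 4 with Alas2 and Hba-a1 at the floor on both, and megakaryocyte markers 4 and 3 of 4. The B cell sums were 1672 and 2405, the erythroid sums 3011 and 1541, and the megakaryocyte sums 6036 and 6198. The part of such cells in the values of the zinc finger genes was not tested. In sorted populations, fewer cells that express a gene and less RNA per cell cannot be told apart.

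Zfp-named genes were spread evenly between the populations. Of the 103 genes, 54 had the higher intensity in primitive HSC and 49 in maturing HSC (52.4% primitive, beside 52.7% of all measured genes). For 56 of them the direction is that of the 1 array through which they entered. Of the 47 above 441 on both arrays, 24 were higher in primitive and 23 in maturing HSC. Ratios are log2 of primitive over maturing intensity, with intensities under 441.0 set to that floor, so a gene at the floor on 1 array has a bound and not a ratio. The members' median was 0.05, beside 0.07 over all 8852 measured genes, and their quartiles were -0.70 and 0.56, beside -0.67 and 0.69. The members' median turned to -0.81 when the arrays were scaled to the spiked hybridisation controls, a scaling that moved the median of all genes from 0.07 to -0.75. It was also just under 0 when the floor lay at percentile 75 (-0.04) and when a gene's probe sets were summarised by their median (-0.01). With 1 array in each population there were no replicates, and no test between populations was possible.

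The threshold for a large difference was 4-fold. It was passed on the primitive side by 5 of the 103 genes, beside 3.45% of all measured genes, and on the maturing side by 3, beside 4.69% of all measured genes. Together the 8 genes were 7.77% of the members, close to the 8.13% of all measured genes that were 4-fold apart in either direction. At this floor the count does not set the members apart from other genes. With the floor at percentile 25, 26.2% of the same 103 members and 15.7% of the 11226 genes then measured were 4-fold apart. The genes that this floor added to the background could not reach 4-fold, so these shares are not alike and do not set the members apart. Scaled to the hybridisation controls, 2 members were 4-fold higher in primitive and 7 in maturing HSC, against 5 and 3. Together they were 9.78% of the 92 members then measured, beside 14.5% of the 9067 genes then measured. Ratios or bounds of 2-fold to 4-fold were seen in 9 further members on the primitive side and 13 on the maturing side. Among all 8852 measured genes the counts were 1080 and 1144. At 2-fold 14 and 16 members were apart in the 2 directions, and 33.3% of all measured genes were. Of the remaining 73 members, 31 had both readings above the floor and lay within 2-fold, and 42 had bounds under 2-fold, which leave the size of their difference unknown.

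Most of these genes had weak signals. Members had a median intensity of 592.6 on the primitive and 704.1 on the maturing array, against 834.0 and 865.9 for all measured genes. The higher of the 2 intensities passed 2000 in 15 members (14.6%) and in 29.9% of all measured genes. Both arrays were above the floor for 47 members (45.6%, against 62.4% of all measured genes), the primitive array alone for 30 and the maturing array alone for 26. These 56 genes have bounds. Among the 47, 2 passed 4-fold on the primitive side and 2 on the maturing side (8.51% together). The background over the 5525 genes with both readings above the floor was 3.6% and 3.49% (7.1% together). Just inside the intensity limit lay Zfp105 (higher intensity 444.7) and Zfp120 (456.3), and just outside it Zfp825 (440.8) and Zfp943 (428.0).

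**Figure D1:**
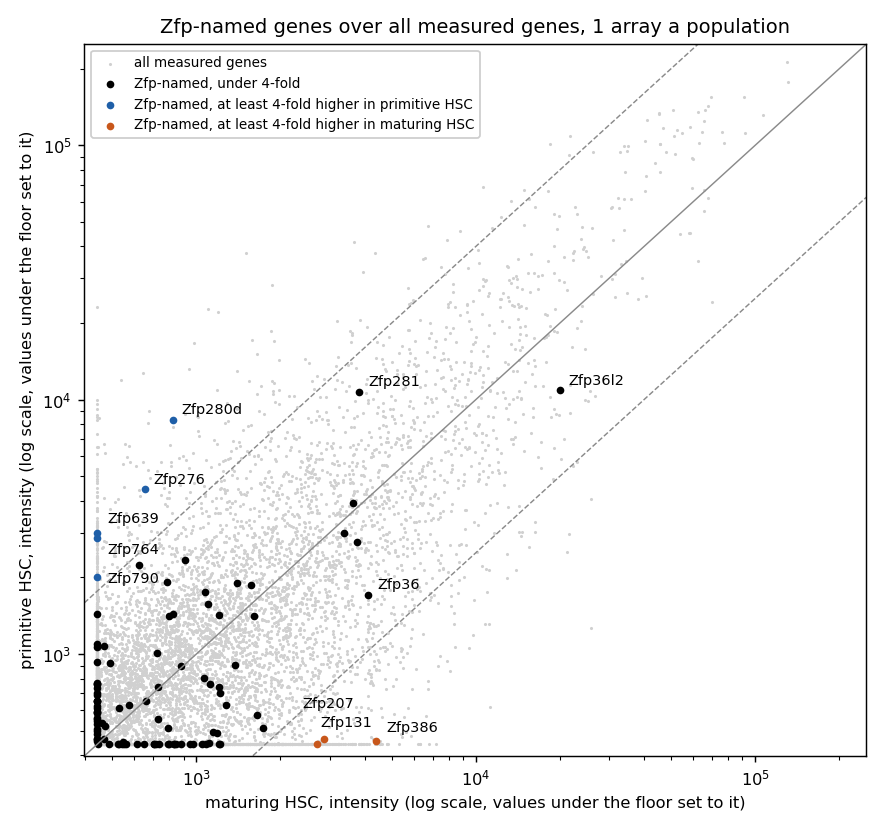
Intensity of 103 Zfp-named genes in primitive HSC (vertical) against maturing HSC (horizontal), both on log scales with values under 441.0 set to it, over all 8852 measured genes in grey. The solid line marks equal intensity and the dashed lines 4-fold; 5 members lie above the upper dashed line and 3 below the lower one.

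The 5 members past 4-fold on the primitive side were Zfp280d, Zfp276, Zfp639, Zfp764 and Zfp790. Zfp280d was the most distant and read 8343 in primitive and 823.4 in maturing HSC, a 10.1-fold difference (log2 ratio 3.34). Its other probe set read 85.3 and 436.2, both under the floor, so the difference rests on 1 of 2 probe sets. Zfp276 read 4439 and 652.9, a log2 ratio of 2.77, and its other probe set was likewise under the floor on both arrays (136.1 and 386.7). In RefSeq the Zfp276 gene overlaps Fanca, a gene of the Fanconi anaemia DNA repair pathway, and Vps9d1. Fanca read 1794 in primitive and 1263 in maturing HSC (log2 ratio 0.51), and Vps9d1 read 1648 and 775.4 (1.09).

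The other 3 were at the floor in maturing HSC and give bounds. Zfp639 read 3003 in primitive and 391.6 in maturing HSC, a bound of at least 6.81-fold from a single probe set. Zfp764 read 2856 and 350.0, at least 6.48-fold higher, from a single probe set of a kind (_x_at) that can also bind other transcripts, so a near-identical copy could contribute to it. Zfp790 read 1999.7 and 17.3, at least 4.53-fold higher, while its other probe set read 450.8 and 251.5 with a bound of 0.03. Scaled to the hybridisation controls, Zfp280d (2.35) and Zfp764 (2.04) stayed past 4-fold, and Zfp639 (1.95), Zfp276 (1.78) and Zfp790 (1.69) did not.

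The 3 members past 4-fold on the maturing side were Zfp386, Zfp131 and Zfp207. Zfp386 read 4394 in maturing and 455.8 in primitive HSC, a 9.64-fold difference, just above the floor on the primitive side. Its other probe set went the same way, with 925.4 in maturing and 32.3 in primitive HSC (a bound of -1.07). Zfp131, which encodes a transcriptional regulator with a BTB domain, read 2865 in maturing and 462.2 in primitive HSC, a 6.20-fold difference from a single probe set.

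Zfp207 encodes BuGZ, a protein that binds microtubules and the checkpoint protein Bub3 in spindle assembly. Its probe set with the highest mean read 2706 in maturing and 122.6 in primitive HSC, a bound of at least 6.14-fold. The other measured probe sets of Zfp207 gave -1.18, -0.07 and 0.48. The median of the gene's probe sets was -0.62. When probe sets shared by several transcripts or transcript forms were left out, the brightest of those left read 1198 in primitive and 859.9 in maturing HSC (0.48). The direction of Zfp207 thus depends on the probe set.

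Promoters of the 2 members most distant in each direction that have an entry in the RefSeq table (GRCm38.p6) are shown because these genes carry the largest differences of the family. Each window runs from 250 bases before to 50 after the annotated start, 5′ to 3′ on the gene's strand. Zfp280d lies at chr9:72274638-72274937 (+ strand), Zfp639 at chr3:32510342-32510641 (+), Zfp386 at chr12:116047474-116047773 (+) and Zfp131 at chr13:119790683-119790982 (- strand, the first of its promoters listed). Capitals mark matches, on either strand, to the motifs searched: the GC box GGGCGG, the CCAAT box CCAAT, an ETS-type motif CCGGAA, the cyclic AMP response element TGACGTCA, a YY1-type motif AAGATGGCG and a TATA-type motif TATAAA. Matches that overlap were each counted.
Zfp280d: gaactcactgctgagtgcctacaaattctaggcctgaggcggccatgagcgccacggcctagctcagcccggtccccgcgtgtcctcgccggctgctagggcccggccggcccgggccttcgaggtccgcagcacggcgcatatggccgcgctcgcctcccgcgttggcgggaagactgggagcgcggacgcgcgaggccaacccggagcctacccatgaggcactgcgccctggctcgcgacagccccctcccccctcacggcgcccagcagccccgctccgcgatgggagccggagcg
Zfp639: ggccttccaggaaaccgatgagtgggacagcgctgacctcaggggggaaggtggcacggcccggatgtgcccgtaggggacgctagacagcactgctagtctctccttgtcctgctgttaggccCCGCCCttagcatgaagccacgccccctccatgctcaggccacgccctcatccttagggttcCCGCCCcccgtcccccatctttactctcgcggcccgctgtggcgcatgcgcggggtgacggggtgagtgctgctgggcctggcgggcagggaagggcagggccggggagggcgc
Zfp386: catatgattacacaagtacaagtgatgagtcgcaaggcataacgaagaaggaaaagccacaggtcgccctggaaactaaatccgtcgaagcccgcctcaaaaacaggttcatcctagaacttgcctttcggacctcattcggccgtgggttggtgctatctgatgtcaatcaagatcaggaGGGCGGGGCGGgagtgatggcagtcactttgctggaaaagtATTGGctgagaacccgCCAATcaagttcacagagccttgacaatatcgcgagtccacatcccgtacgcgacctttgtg
Zfp131: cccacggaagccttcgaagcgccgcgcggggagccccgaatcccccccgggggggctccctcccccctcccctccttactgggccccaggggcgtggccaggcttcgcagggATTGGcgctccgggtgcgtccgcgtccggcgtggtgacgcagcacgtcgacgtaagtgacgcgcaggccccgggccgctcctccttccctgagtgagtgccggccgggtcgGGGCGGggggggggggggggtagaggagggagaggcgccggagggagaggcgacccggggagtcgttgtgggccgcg
The Zfp639 window held 2 GC boxes, that of Zfp386 2 overlapping GC boxes and 2 CCAAT boxes, and that of Zfp131 1 GC box and 1 CCAAT box. The Zfp280d window held none of the 6 motifs, with 37 CpG dinucleotides and a GC content of 73.7%. The other GC contents were 69.0% for Zfp639, 51.0% for Zfp386 and 76.7% for Zfp131.

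Across the family, 84 of the 103 genes had an entry, with 101 promoters in all. Of these 55.4% held a GC box, 50.5% a CCAAT box and 30.7% an ETS-type motif, against 59.0%, 37.0% and 24.8% of 9200 promoters of measured genes and 35.7%, 37.4% and 14.9% of all 32851 promoters in the table. The YY1-type and TATA-type motifs were in 3.0% and 8.9% of members' promoters, against 2.6% and 8.7% for measured genes and 1.4% and 13.6% for all. The cyclic AMP response element was in 0 of 101 (2.8% of promoters of measured genes, 1.8% of all). The members' promoters had a median of 17 CpG dinucleotides and 56.7% GC, against 19 and 60.0% for measured genes and 7 and 52.7% for all promoters. Members higher in primitive HSC held a CCAAT box in 21 of 47 promoters and those higher in maturing HSC in 30 of 54, with TATA-type motifs in 1 and 8. These shares describe letters in a window, and neighbouring family members share ancestry, so they are not independent.

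The CCCH proteins of mRNA decay were among the brightest members, and all 3 measured genes had lower intensity in primitive HSC, under each scaling tried. Zfp36l2, which is known to be needed for definitive haematopoiesis in mice, read 10862 in primitive and 19984 in maturing HSC, a log2 ratio of -0.88. Its other probe sets were both under the floor. Zfp36 (tristetraprolin), an immediate early gene whose protein promotes decay of cytokine messages, read 1709 and 4126, a log2 ratio of -1.27 from a single probe set. Zfp36l1 read 2980 and 3378 (-0.18), with its other probe set at -0.38. None of the 3 reached 4-fold; Zfp36 did so at -2.26 when scaled to the hybridisation controls.

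Proteins of RNA handling, the ribosome and the spindle were a mixed group. Of 9 measured members, 6 were higher in primitive HSC and 3 in maturing HSC, with a median of 0.24 that turned to -0.81 under the hybridisation controls. Zfp622, a maturation factor of the large ribosomal subunit, was almost equal at 3922 in primitive and 3642 in maturing HSC (0.11), but this came from an _x_at probe set and its other probe set gave -0.90. Zfp593, a factor of large subunit assembly, read 587.6 and 213.6, a bound of 0.41. Zfp598, the ubiquitin ligase that marks collided ribosomes, read 592.6 and 183.2, a bound of 0.43. These 2 readings lay little above the floor in primitive HSC.

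Zfp326, part of a complex that couples elongation by RNA polymerase II to splicing, read 1412.5 in primitive and 796.1 in maturing HSC (0.83). Zfp106, an RNA-binding protein, read 1426 and 1205 (0.24), with other measured probe sets from -0.64 to 0.26. Zfp385a, which binds double-stranded RNA, read 759.6 and 166.2, a bound of 0.78. In the other direction, Zfp638, an RNA-binding nuclear protein also known for silencing unintegrated retroviral DNA, read 903.1 and 1371 (-0.60), and its second probe set agreed at -0.53. Zfp830 read 349.1 and 847.8, a bound of -0.94, and its other measured probe set gave a bound of -0.10. Zfp346, a double-stranded RNA-binding protein, was under the floor on both arrays (76.5 and 345.3).

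Of 4 measured promoter-binding and regulatory proteins, 2 were higher in each population, with a median of -0.17. It turned to 0.10 under a floor at percentile 75 and to 0.41 when shared probe sets were left out. Zfp281, a regulator of pluripotency genes that binds GC-rich DNA, read 10735 in primitive and 3820 in maturing HSC, a 2.81-fold difference (1.49). Its other probe set went the opposite way, with 417.3 and 803.3 (-0.87). Zfp148 (ZBP-89), a relative of Zfp281 with a similar binding preference, read 704.3 and 1216 (-0.79), and its other measured probe set gave -1.53. The 2 relatives thus had opposite signs on the probe sets with the highest mean.

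Zfp91, a ubiquitin ligase of NF-kappaB signalling, read 1908 in primitive and 1396 in maturing HSC (0.45), with its other measured probe set at -1.26. Zfp410, known as a dedicated activator of the chromatin remodeller gene Chd4, read 630.1 and 1279 (-1.02), with its other probe set at 0.36. Chd4 itself read 3102 in primitive and 1852 in maturing HSC (0.74).

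Few of the proteins known to guard imprints or silence retroelements were measured. Zfp445, an imprint guardian, read 1432 in primitive and 327.2 in maturing HSC, a bound of 1.70 from a probe set (_s_at) that can bind several transcripts. Its other probe set was under the floor on both arrays (83.2 and 294.3). Zfp57, the other well-known guardian of imprints, was under the floor on both arrays (106.7 and 82.8). Zfp568, a repressor of a placental Igf2 transcript, read 487.3 and 1185 (-1.28), with its other measured probe set at -0.40. Zfp932, a retroelement-binding KRAB protein, read 801.9 and 1065 (-0.41). Over these 3 measured genes 1 was higher in primitive and 2 in maturing HSC.

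Among members known from stem cells or single lineages, 5 of 7 measured genes had the higher primitive reading and 2 the higher maturing reading. The 5 include Zfp385a, which was also counted among the RNA-handling genes above. The median was 0.26 and turned to -0.51 under the hybridisation controls. Zfp521, a co-factor known from haematopoietic progenitors and B lineage cells, read 47.0 in primitive and 946.0 in maturing HSC, a bound of -1.10 that became -2.75 with the floor at percentile 25. Zfp467 read 1074 and 465.6 (1.21). Zfp37 read 651.1 and 118.1, a bound of 0.56, while its other probe set was under the floor on both arrays (36.0 and 58.0). Zfp35 read 1866 and 1562 (0.26). Zfp318, which controls the alternative expression of immunoglobulin D in B cells, was equal at 894.3 and 879.6 (0.02). Zfp105 lay at the floor with a bound of -0.01. The pluripotency marker gene Zfp42 (Rex1) was under the floor on both arrays (75.6 and 125.6), as were Zfp423 (38.9 and 22.5), a relative of Zfp521, and Zfp296 (231.8 and 276.5).

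**Figure D2:**
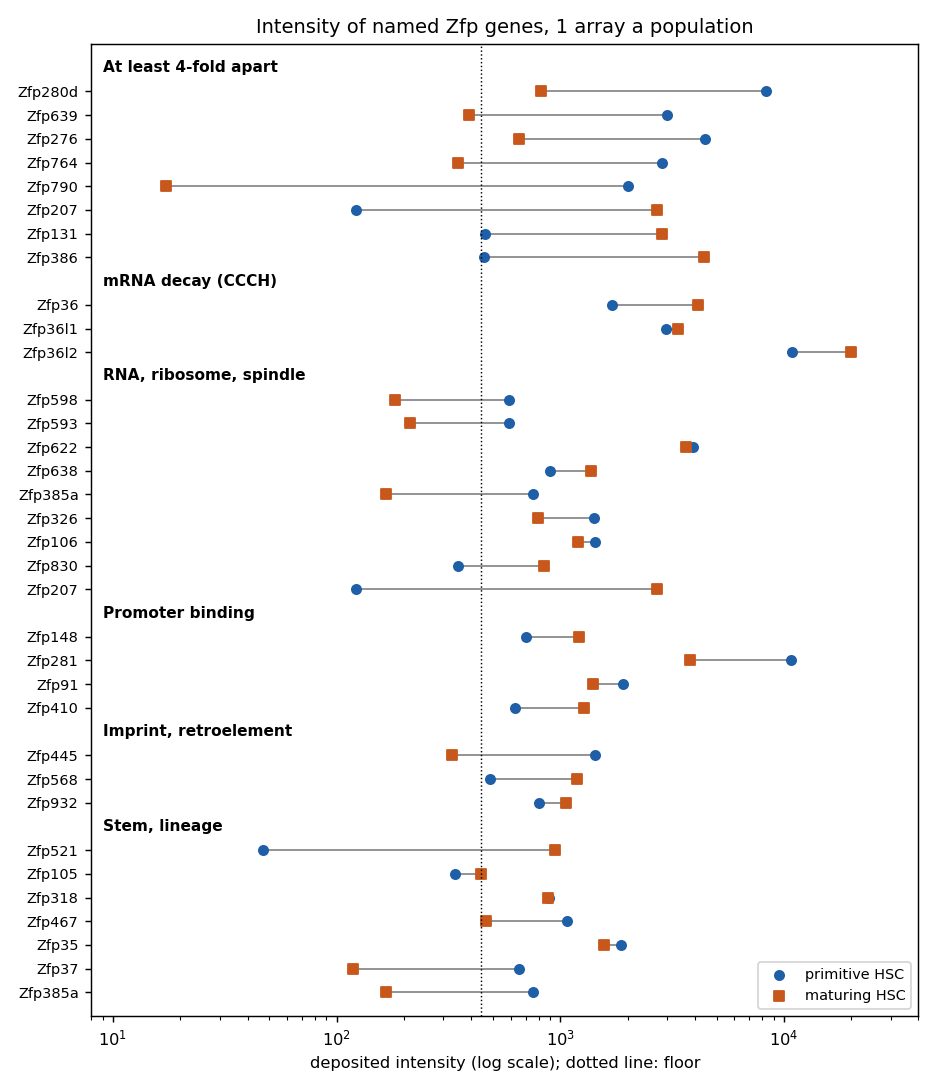
Deposited intensity (horizontal, log scale) of the 8 members at least 4-fold apart and of the measured members of the 5 role groups, in primitive HSC (blue circles) and maturing HSC (orange squares), 1 array each, with the floor of 441.0 dotted. The 3 mRNA decay genes are all higher in maturing HSC, while the other role groups hold genes of both directions.

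Zfp330, the remaining gene among the 8 with the highest mean intensity, read 2756 in primitive and 3750 in maturing HSC (-0.44). Intensities of different probe sets are not on one scale, so this order is not an order of transcript abundance. A pair of members had 3 or more measured probe sets that spanned over 2 log2 units, besides Zfp207. Zfp24, which encodes a zinc finger protein with a SCAN domain, read 2247 and 623.4 (1.85), while its other measured probe sets gave -0.17 and -1.25. Zfp292 read 576.5 and 1655 (-1.52), with others at -0.72, -0.64 and 0.77.

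Probe sets of a gene often went different ways. Of 22 members with at least 2 measured probe sets, all probe sets went the same way in 9 (40.9%), against 55.6% of 2763 genes. The SD between probe sets of a member was 0.91 on the log2 scale over 10 members with at least 2 probe sets above the floor on both arrays, and 0.82 over 1318 genes. The SD of the members' own log2 ratios was 1.21 over the 47 with both readings above the floor, and 1.11 over all 103, bounds included. Ratios below about 2-fold are thus no larger than the spread between probe sets. A further 57 members had a single probe set and no such check.

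**Figure D3:**
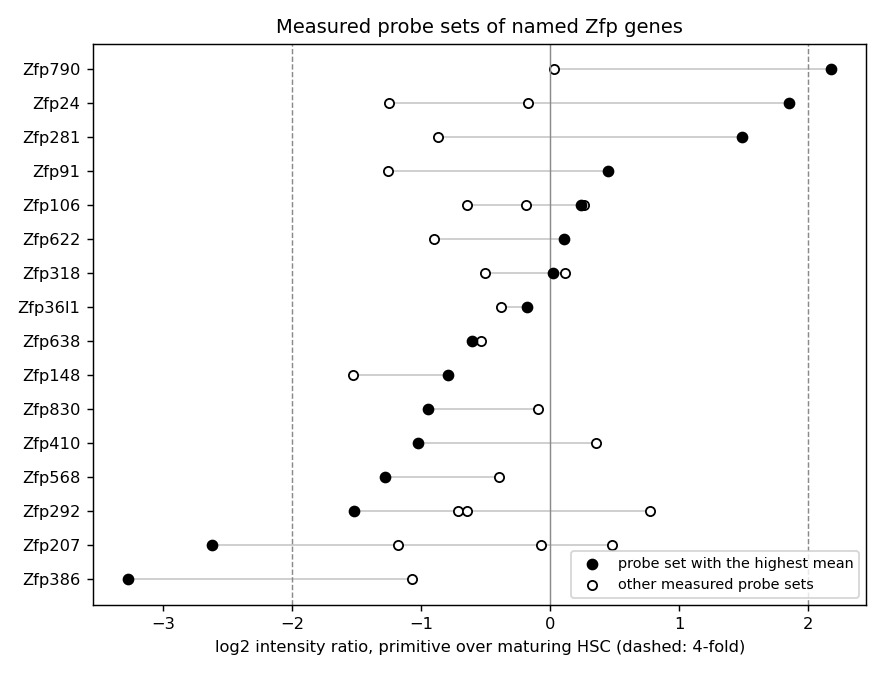
Log2 intensity ratio of primitive over maturing HSC (horizontal) for each measured probe set of the named genes with at least 2, with the probe set of highest mean filled and the others open. Zfp207 spans from -2.62 to 0.48 and Zfp24 from -1.25 to 1.85, on both sides of 0, while both probe sets of Zfp386 are below 0.

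The remaining members between 2-fold and 4-fold apart were mostly bounds. On the primitive side, Zfp111 read 1092 in primitive and 369.6 in maturing HSC, at least 2.48-fold. Zfp185, which encodes a LIM-domain protein of the actin cytoskeleton in spite of its name, read 1068 and 140.5, at least 2.42-fold. Zfp553 read 932.8 and 121.9, at least 2.12-fold, and Zfp101 read 2342 and 912.2 (1.36), above the floor on both arrays. The other probe sets of Zfp101, Zfp111 and Zfp185 were under the floor on both arrays, and that of Zfp553 gave a bound of 0.23.

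On the maturing side, Zfp942 read 181.6 in primitive and 1216.5 in maturing HSC, at least 2.76-fold. Zfp954 (347.0 and 1203), Zfp46 (173.7 and 1086), Zfp280c (59.0 and 1045) and Zfp322a (429.7 and 970.2) had bounds of 2.73-fold, 2.46-fold, 2.37-fold and 2.20-fold. Zfp869 was above the floor on both arrays and read 494.5 and 1151 (-1.22). Zfp280c, a relative of Zfp280d, thus had the opposite sign to the 1 Zfp280d probe set above the floor. The other Zfp280d probe set, under the floor on both arrays, read 85.3 in primitive and 436.2 in maturing HSC.

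Many Zfp genes arose by local duplication and lie side by side in the genome. By the order of protein-coding genes in RefSeq, 38 of 102 matched members lay in 12 groups whose consecutive members were at most 10 gene positions apart. These groups were formed after the values had been seen. Of the 12 groups, 8 held members of both directions and 4 went one way. Of 9 directly adjacent pairs, 6 had the same sign. Where genes of a group are copies that share sequence, their probe sets may in part read each other's transcripts. The groups rest on position alone, and sequence likeness within them was not tested.

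The group of Zfp397, Zfp35 and Zfp24 was higher in primitive HSC throughout, at 0.52, 0.26 and 1.85, although the other Zfp24 probe sets were below 0. The pair Zfp275 and Zfp92 was also higher there, with 0.13 and a bound of 0.35, as were Zfp326 (0.83) and Zfp644 (a bound of 0.33). The pair Zfp329 and Zfp110, the latter encoding a protein that binds the neurotrophin receptor p75, had bounds of -0.32 and -0.74. Scaled to the hybridisation controls, Zfp329 and Zfp110 stayed below 0, while Zfp275, Zfp92, Zfp326 and 2 of the 3 genes in the group of Zfp24 turned to the maturing side; Zfp644 was no longer measured.

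Other groups split. In the run Zfp398, Zfp282, Zfp212, Zfp746 and Zfp467, Zfp212 read 510.5 in primitive and 1729 in maturing HSC (-1.76). Zfp746 (PARIS), a repressor of the gene for PGC-1alpha, read 1914 and 784.7 (1.29). Zfp398 and Zfp282 had bounds of 0.08 and -0.68, but the other probe set of Zfp282 gave a bound of 0.18. In the run of Zfp84, Zfp790, Zfp568 and Zfp82, Zfp84 read 445.8 and 1110 (-1.32) and Zfp568 stood at -1.28, while Zfp790 had a bound of 2.18 and Zfp82 one of 0.48. The other probe set of Zfp84 went the opposite way, with 555.1 and 32.6 (a bound of 0.33). In the run of Zfp553, Zfp768 and Zfp764, Zfp768 was equal at 655.5 and 660.2 (-0.01) between bounds of 1.08 and 2.70. The run of Zfp111, Zfp109, Zfp108 and Zfp93 had bounds of 1.31, -0.25, 0.18 and 0.50. The near-copies Zfp955a and Zfp955b stood at 0.80 and a bound of -0.14, beside Zfp101 at 1.36.

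Genomic span was set beside the ratio. The 51 members with the shorter span had a median of -0.01 and the 51 with the longer span 0.08, around a median span of 16718 bases. In the shorter group 24 and in the longer group 30 were higher in primitive HSC.

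Most measured partners of KRAB proteins had the lower intensity in primitive HSC. Of 15 measured genes of the co-repressor list, 11 had the higher intensity in maturing and 4 in primitive HSC, with a median of -0.87, beside 0.07 over all measured genes. The list's median stayed below that of all genes under the alternatives tried, by 0.69 to 1.06, and the 9 genes with both readings above the floor had a median of -0.60. At 4-fold, 2 of the 15 were higher in maturing and 0 in primitive HSC, where 4.69% and 3.45% of measured genes were. Trim28, the co-repressor itself, read 2142.5 in primitive and 3783 in maturing HSC (-0.82). Setdb1 read 756.6 and 1146.5 (-0.60).

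The heterochromatin protein gene Cbx5 read 400.1 in primitive and 2032.5 in maturing HSC, a bound of at least 4.61-fold toward maturing HSC. Gatad2b, a subunit of the NuRD remodelling and deacetylase complex, read 88.2 and 2937, a bound of at least 6.66-fold the same way. The NuRD genes Mta2 (65.8 and 1739) and Rbbp4 (3854 and 11244.5) were higher there too, Mta2 by at least 3.94-fold and Rbbp4 by 2.92-fold. The 4 genes of the list that were higher in primitive HSC were Chd4, Suv39h2 (a bound of 0.35), Hdac2 (0.21) and Cbx1 (0.11).

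Of 9 measured genes that maintain silencing, 7 were higher in maturing HSC, with a median of -0.48. Uhrf1, which brings the maintenance methyltransferase to replicated DNA, read 289.4 in primitive and 1801 in maturing HSC, a bound of at least 4.08-fold and the 1 gene of the list past 4-fold (11.1%, beside 4.69% of all measured genes on that side). Dnmt1, that methyltransferase, read 2536 and 4412 (-0.80). The histone chaperone gene Daxx had a bound of -1.16, while the de novo methyltransferase gene Dnmt3a read 1815 and 756.6 (1.26).

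Zinc finger families with other names also held genes of both directions. These lists were matched by symbol. Of 18 measured genes with a Zbtb symbol, 8 were higher in primitive and 10 in maturing HSC, with a median of -0.12 and 0 past 4-fold, where 8.13% of all measured genes were. Leaving out the opposite-strand transcript Zbtb11os1 left 17 genes, which encode a BTB domain beside their fingers, with a median of -0.19. The 7 Zbtb genes with both readings above the floor had a median of -0.79, and the median was -0.48 under a floor at percentile 75. The largest were Zbtb32 (a bound of 1.61), Zbtb14 (a bound of -1.50), Zbtb1 (-1.45) and Zbtb7b (a bound of 1.30). Of 23 measured genes with a Klf, Sp or Egr symbol, 13 had the higher primitive reading, and the list's median of 0.13 turned to -0.86 under the hybridisation controls. The list holds the nuclear body genes Sp100 and Sp110, which are not of this family. Without them 12 of 21 genes had the higher primitive reading, with the same median (0.13). In both versions 2 genes were past 4-fold, both higher in maturing HSC (8.7% of 23 and 9.52% of 21), where 4.69% of all measured genes were higher in maturing HSC and 8.13% were 4-fold apart either way. Sp3, a GC box factor, read 448.1 in primitive and 2782 in maturing HSC (-2.63). Klf10 had a bound of -2.21. Klf1, the erythroid factor, read 1652 and 444.5 (1.89). Sp1 had a bound of -1.82.

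Of 6 measured Zscan and Zkscan genes, 3 were higher in each population, with a median of 0.06 that had no stable sign across settings. Zscan21 read 236.4 in primitive and 1914.5 in maturing HSC, at least 4.34-fold higher in maturing HSC. It was the 1 gene of the 6 past 4-fold, beside 4.69% of all measured genes on that side. Zkscan3 stood at -1.15, Zkscan14 at 0.55, and Zscan5b read 882.9 and 177.7. The 5 genes Ikzf1, Ikzf2, Ikzf4, Gfi1 and Gfi1b, which hold several of the best-known zinc finger factors of blood cells, were under the floor on both arrays. Ikzf1 had primitive and maturing readings of 401.5 and 79.9, and Gfi1 of 187.3 and 339.1. A value under the floor does not show that a gene was not expressed.

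**Figure D4:**
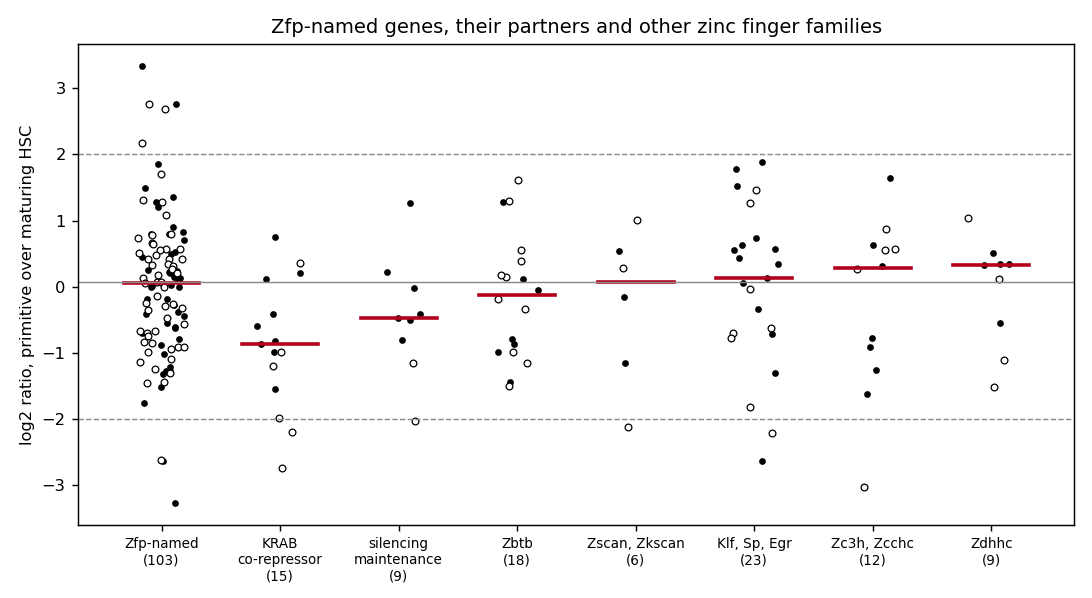
Log2 ratio of primitive over maturing HSC (vertical) for each measured gene of the Zfp-named genes, their partners and other zinc finger families, with filled points above the floor on both arrays, open points for bounds, red bars at the medians and a grey line at the median of all measured genes (0.07). The co-repressor list has its median at -0.87, and the Zfp-named genes at 0.05.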

How the data were processed

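The deposited intensities, on a linear scale, come from MAS5 per the submitters' processing notes (version not given in the sources used here). Both arrays have nearly equal 2% trimmed means, from the values. Scaling to an equal mean hides a difference in total RNA per cell, and the PCR amplification, size selection and cloning named in the labels' protocols can each change a transcript's share. Of 22690 probe sets, 64 were controls, 20380 had 1 gene symbol in the platform annotation and 691 had several. Genes were named from single-symbol probe sets, and 102 of 103 members matched RefSeq by Entrez identifier, with 0 symbols changed. Each gene was represented by its brightest probe set over both arrays. Intensities, printed as deposited, were rescaled to equal 2% trimmed means for ratios. Intensities under 441.0, the pooled median, were set to it. Genes past 4-fold were counted, without a test, since each group had 1 array, and the number of arrays limits the precision. Detection calls were not used here.

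The members and lists were chosen with earlier results of these data known. Genes named were those at least 4-fold apart, the 8 with the highest mean, measured members of the role groups, 2 on each side of the intensity limit, members with 3 or more probe sets that disagreed by over 2 log2 units, and up to 4 of each other list. Members of groups of nearby genes, and further list genes, were named after their values had been seen. Results were recomputed under lowess (fraction 0.3), quantile normalization, deposited values without rescaling, a median ratio set to 0, scaling to 18 hybridisation control probe sets, thresholds of 2-fold and 8-fold, floors at percentile 25 and percentile 75, probe set medians, leaving out probe sets ending in _s_at, _x_at or _a_at, and genes above the floor on both arrays. Marker sums without Procr, and lists without Zbtb11os1, Sp100 and Sp110, were added after seeing the data. Steps were tested on simulated data. Ratios and medians were computed with pandas 2.3.3 and numpy 2.4.6 in Python 3.11.15, lowess with statsmodels 0.14.6 and plots with matplotlib 3.10.9.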

Additional observations from a re-analysis of the deposited data

How the results depend on the processing

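No paired analysis was possible because each population had 1 array. Scaling to the hybridisation controls, which were higher on the primitive array in 18 of 18 probe sets (median log2 ratio 0.97), left 2 Zfp-named genes at least 4-fold higher in primitive and 7 in maturing HSC, and 90 and 1227 of all genes. It moved the members' median log2 ratio to -0.81, as the median of all genes moved from 0.07 to -0.75, and the share of 4-fold genes that were higher in primitive HSC from 42.4% to 6.8% over all genes and from 62.5% to 22.2% among members. With the floor at percentile 25 (140.6) the counts were 15 and 12 members (26.2% of 103) and 761 and 998 genes (15.7% of 11226). The genes that this floor added to the background could not reach 4-fold, so the 2 shares are not alike. At percentile 75 (1027) the counts were 2 and 1 members and 165 and 126 genes. Genes above the floor on both arrays gave 2 members and 199 genes higher in primitive HSC and 193 genes higher in maturing HSC. A 2-fold threshold gave 14 and 16 members and 1385 and 1559 genes, and an 8-fold threshold 1 and 1 members and 66 and 60 genes. These last 3 kinds of change follow from how the settings are built. Without probe sets ending in _s_at, _x_at or _a_at, Zfp207 was read from the brightest probe set left, which went the other way (0.48). The other measured probe sets left gave -1.18 and -0.07. Zfp280d and Zfp386 stayed past 4-fold in 10 of 10 alternatives, from 2.35 to 3.43 and from -3.81 to -2.10. Each of the other 6 genes fell under 4-fold in 1 to 3 of the alternatives that still held it. Besides these, Zfp639, Zfp764, Zfp790 and Zfp207 dropped out where both readings had to pass the floor. Zfp764 also dropped out without probe sets ending in _s_at, _x_at or _a_at. Quantile normalization, lowess, a median of 0 and the values as deposited moved none of the members' counts by over 1.5 times.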

Other observations

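Proteins with zinc-binding domains of other kinds were not described above. Of 12 measured Zc3h and Zcchc genes, which encode CCCH and zinc knuckle proteins of RNA metabolism, 7 were higher in primitive and 5 in maturing HSC. Their median log2 ratio was 0.29, but -0.77 over 7 genes that passed the floor on each array, -0.39 under the hybridisation controls and -0.18 with the floor at percentile 75. Zc3h14, a poly(A)-binding protein, read 138.7 in primitive and 3613 in maturing HSC, at least 8.19-fold higher in maturing HSC. It was the 1 gene of the 12 past 4-fold, beside 4.69% of all measured genes on that side. Zcchc7, a part of the nuclear RNA surveillance complex TRAMP, read 1774 and 565.5 (1.65), Zc3h15 read 1054 and 3232 (-1.62), and Zcchc8, a part of the nuclear exosome targeting complex, read 475.3 and 1133.5 (-1.25).

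Of 9 measured Zdhhc genes, which encode palmitoyl transferases, 6 had the higher primitive reading. The median of 0.33 turned to -0.59 under the hybridisation controls and to -0.55 over the 3 genes left without shared probe sets. The largest were Zdhhc3 (a bound of -1.51), Zdhhc16 (a bound of -1.10) and Zdhhc12 (a bound of 1.04), followed by Zdhhc20 (-0.55). None was 4-fold apart, where 8.13% of all measured genes were.

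A further 16 probe sets were annotated to several symbols of which at least 1 was Zfp-named, and 11 of them were above the floor on at least 1 array. They stand for no gene here.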
